A study of Rattus norvegicus with 36 samples.

Results

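The miR-379 to miR-410 cluster is a run of miRNA hairpins in the imprinted Dlk1-Dio3 region of rat chromosome 6. Its members were taken by name, as every mature miRNA whose number belongs to one of the cluster's hairpins. The rule used no measured change, but it was set with earlier results of these data known. Of 66 such names in the table, 61 had a summed count of at least 15 over all libraries and were taken as members. They come from 32 hairpins, out of 723 mature miRNAs listed and 628 with any count. The names left out were rno-miR-409b, rno-miR-544-3p, rno-miR-544-5p, rno-miR-679 and rno-miR-758-5p, which had 0 to 9 counts each. A further 5 members were too low for the tests (rno-miR-299b-5p, rno-miR-376a-3p, rno-miR-376c-3p, rno-miR-376c-5p and rno-miR-381-5p, 30 to 112 counts each), so 56 of 61 were tested.

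Small RNA was sequenced from 36 libraries of 12 male heterogeneous stock rats, an outbred strain, with 1 library from each rat's prelimbic cortex (PL), infralimbic cortex (IL) and nucleus accumbens (NAc). The rats formed 3 groups of 4. Naïve rats had no cocaine self-administration, withdrawal rats were killed 16 h (by the labels) after the last session of escalated cocaine self-administration, and abstinence rats were killed after 4 weeks of forced abstinence. Ages were matched at the start of self-administration, so abstinence rats were older when killed, and the methods give catheter surgery and behavioural tests for the cocaine rats and none for the naïve rats. The effects of these and of cocaine cannot be told apart. The table holds unnormalized counts of reads for each mature miRNA, shown here as log2 CPM (counts scaled to a common library size, on a log2 scale), and total counts ran from 6192155 to 18877136 per library.

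The cluster is transcribed from the maternal chromosome together with other noncoding RNAs of the region, and many of its miRNAs are cut from 1 long host transcript, Mirg. Each hairpin can give 2 mature miRNAs, 1 from its 5′ arm (5p) and 1 from its 3′ arm (3p), and the cell usually keeps more of one of them. The cluster is rich in neurons, where the activity-dependent factor Mef2 drives its transcription. Among its members, miR-134 represses the kinase Limk1 and so limits the size of dendritic spines, and miR-485 represses the synaptic vesicle protein SV2A.

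In RefSeq's annotation of the GRCr8 assembly, 30 of the 32 hairpins spanned 36394 bases at chr6:134543445-134579838. Of these 29 lay on the plus strand and 1, Mir299b, on the minus strand, opposite Mir299. Each is annotated as a miRNA gene of its own. The submitters' notes name the build mRatBN7.2 for the files, so these coordinates describe the reference and were not used for counting. All 61 members had a RefSeq mature sequence. The sequences below have the seed, bases 2 to 8, in capitals, since the seed does most of the pairing with target mRNAs. The first 4 are the most abundant members of the cluster.
rno-miR-543-3p, chr6:134552453-134552473, plus strand: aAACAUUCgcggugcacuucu
rno-miR-409a-3p, chr6:134579231-134579250, plus strand: aAUGUUGCucggugaacccc
rno-miR-485-5p, chr6:134571076-134571097, plus strand: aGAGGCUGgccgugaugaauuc
rno-miR-541-5p, chr6:134578434-134578458, plus strand: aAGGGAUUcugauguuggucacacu
The next 4 are members with some of the largest differences between the NAc and the cortex, 3 higher and 1 lower in the NAc.
rno-miR-380-3p, chr6:134546281-134546301, plus strand: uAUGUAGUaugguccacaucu
rno-miR-495, chr6:134554103-134554124, plus strand: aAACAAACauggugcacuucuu
rno-miR-410-3p, chr6:134579808-134579828, plus strand: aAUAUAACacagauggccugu
rno-miR-323-5p, chr6:134546959-134546980, plus strand: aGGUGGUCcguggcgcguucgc
The opposite arms of the miR-323 and miR-485 hairpins are given because their levels parted from those of the 5p arms.
rno-miR-323-3p, chr6:134546994-134547014, plus strand: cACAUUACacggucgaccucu
rno-miR-485-3p, chr6:134571115-134571136, plus strand: cAUACACGgcucuccucucuuc

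Neighbours in the cluster rarely shared a seed. The 61 members carried 55 distinct seeds, and 5 seeds were shared by 2 or more members, 11 members in all. The largest such group had 3 members from hairpins spread over the cluster, printed here to show how far they differ outside the seed.
rno-miR-410-5p, chr6:134579773-134579793, plus strand: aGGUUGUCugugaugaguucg
rno-miR-494-5p, chr6:134550130-134550151, plus strand: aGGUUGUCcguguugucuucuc
rno-miR-496-5p, chr6:134575062-134575081, plus strand: aGGUUGUCcaugguguguuc
The other shared seeds joined rno-miR-381-3p with rno-miR-539-3p, rno-miR-299a-3p with rno-miR-299b-3p, rno-miR-299a-5p with rno-miR-299b-5p and rno-miR-376b-5p with rno-miR-376c-5p. Only 4 of the 55 seeds were shared with a rat miRNA outside the cluster among the RefSeq sequences used. Some members are so alike that a read could be given to either. Over the 18 bases of the RefSeq rno-miR-381-3p, it and rno-miR-300-3p differ by 1 base (G4A, the base of rno-miR-300-3p first, counted from the 5′ end), inside the seed.
rno-miR-300-3p, chr6:134559968-134559989, plus strand: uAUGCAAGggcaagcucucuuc
rno-miR-381-3p, chr6:134562422-134562439, plus strand: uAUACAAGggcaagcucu
rno-miR-300-3p had a summed count of 272898 and rno-miR-381-3p 1603. Their split is uncertain, as is that of rno-miR-299a-5p and rno-miR-299b-5p (U1C), of rno-miR-376b-5p and rno-miR-376c-5p (G19U), and of rno-miR-379-3p and rno-miR-411-3p, which differ by 1 base when shifted by 1.

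The cluster held 3.90% ± 0.64 (SD, n = 36 libraries) of all miRNA counts, and a few members made up most of it. rno-miR-543-3p alone held 29.3% of the members' counts. With rno-miR-409a-3p (15.5%), rno-miR-485-5p (11.1%), rno-miR-541-5p (8.29%), rno-miR-379-5p (6.54%), rno-miR-382-5p (5.60%), rno-miR-323-3p (4.67%) and rno-miR-485-3p (3.83%), 8 members held 84.8%. Levels of different miRNAs are compared here without regard to how well each sequence is captured in a library.

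The share of counts held by the cluster was lowest in the PL and highest in the NAc. It ran from 2.96% to 3.80% in the PL (mean 3.30%), from 3.25% to 5.19% in the IL (mean 3.88%) and from 3.99% to 5.14% in the NAc (mean 4.52%). The NAc and PL ranges did not overlap, but this rested on the most abundant member. Without rno-miR-543-3p the share was 2.74% to 3.53% in the NAc and 2.13% to 2.82% in the PL, which overlap. Within rats, the share was higher in the NAc than in the PL in 12 of 12 rats and higher than in the IL in 10 of 12, and it was higher in the IL than in the PL in 11 of 12. Set against the counts outside the 10 most abundant miRNAs, the NAc kept the higher share in 11 of 12 rats against either cortical region, while the IL was above the PL in 8 of 12. A share also depends on the levels of the miRNAs outside the cluster. As this is dissected tissue, lower levels of other miRNAs, more cells that express the cluster and more of its RNA per cell cannot be told apart.

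**Figure D1:**
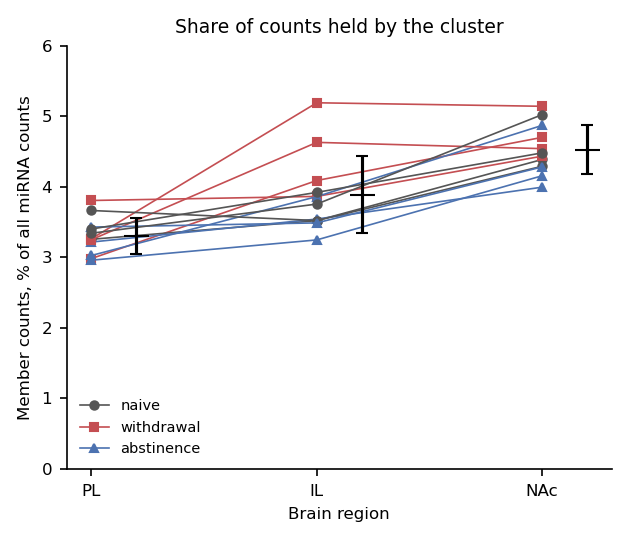
Share of all miRNA counts held by the 61 cluster members (y axis, percent from 0 to 6) in the PL, IL and NAc of each rat; lines join the regions of 1 rat, colours and symbols mark the cocaine group, and black bars give the mean and SD of 12 rats. The NAc points (3.99% to 5.14%) all lie above the PL points (2.96% to 3.80%). Without rno-miR-543-3p, which is not drawn, the NAc and PL ranges overlap.

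The NAc was then compared with each cortical region over the 12 rats, with the rat as a block and an adjustment for RIN, the integrity number of the RNA, by edgeR's quasi-likelihood test over all 457 miRNAs that passed the filter. A miRNA was called at a Benjamini-Hochberg adjusted p under 0.05. Of 56 members, 34 were higher and 10 lower in the NAc than in the PL, and 12 did not pass. Over all 457 miRNAs 35.0% were higher and 32.4% lower in the same test, so the share of members called higher, 60.7%, was above the background and the share called lower, 17.9%, below it. The median log2 fold change (log2FC) was 0.50 for the members and 0.05 for all miRNAs. Against the IL, 30 members were higher and 14 lower, where the background was 41.1% higher and 35.2% lower, and the median log2FC was 0.54 for the members and 0.10 for all. The same 30 members were higher in the NAc than in both cortical regions, and 10 were lower than in both. The remaining calls were 3 members higher in the NAc than in the PL with no call against the IL (rno-miR-412-3p, rno-miR-543-3p and rno-miR-666-3p), 3 lower than in the IL with no call against the PL (rno-miR-382-5p, rno-miR-409a-3p and rno-miR-667-3p), and rno-miR-666-5p, which was above the PL and below the IL. Both comparisons use the same NAc libraries.

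**Figure D2:**
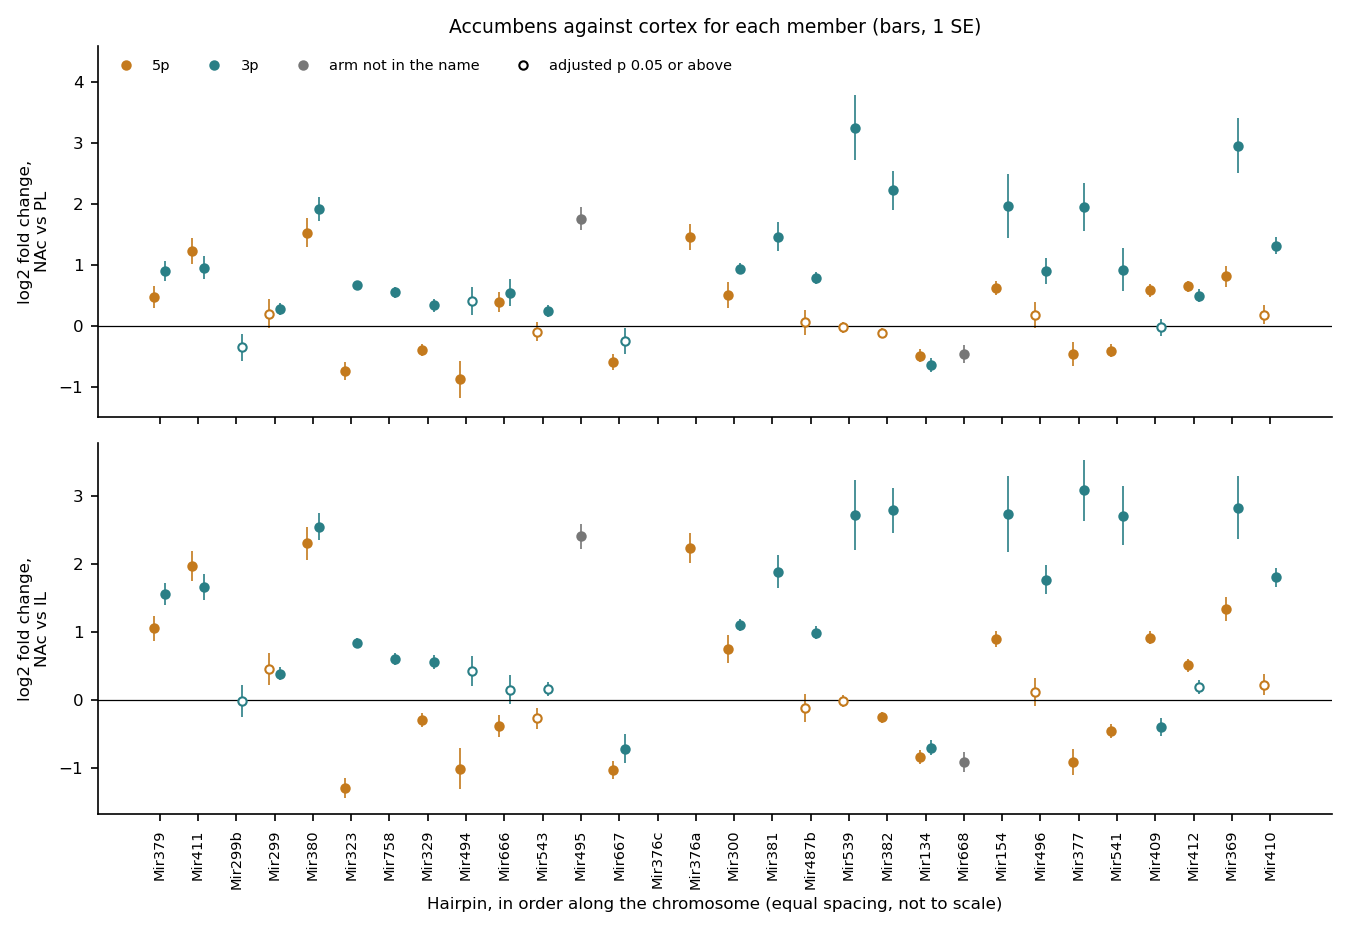
Log2 fold change of each tested member in the NAc against the PL (upper panel) and the IL (lower panel), for the 30 hairpins with a position, in order along the chromosome. Orange points are 5p arms, teal points 3p arms and grey points members with no arm in the name; filled points have an adjusted p under 0.05 and bars give 1 SE. Members higher and lower in the NAc lie side by side all along the cluster, and the 2 arms of several hairpins lie on opposite sides of 0.

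The miR-379 and miR-411 hairpins open the cluster, and both arms of each were higher in the NAc. rno-miR-411-5p lay between 6.94 and 9.24 log2 CPM in the PL (median 8.52), between 6.73 and 8.46 in the IL (median 7.61) and between 7.58 and 10.97 in the NAc (median 9.80). The ranges overlapped, but the NAc was above the PL in 11 of 12 rats and above the IL in 12 of 12 (log2FC = 1.23 and 1.97, SE 0.22 and 0.22, adjusted p = 2.01e-05 and 8.53e-09 from edgeR). rno-miR-379-5p, the most abundant of these, was 1.38-fold higher in the NAc than in the PL (log2FC = 0.47, SE 0.18, adjusted p = 0.0257) and 2.08-fold higher than in the IL (log2FC = 1.05, SE 0.18, adjusted p = 1.08e-05).

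rno-miR-380-3p led the members that averaged at least 3 log2 CPM over the libraries. Its level was 2.47 to 4.21 log2 CPM in the PL (median 3.87), 2.49 to 3.63 in the IL (median 3.0) and 4.36 to 6.28 in the NAc (median 5.60). Every NAc library was above every cortical library. The NAc was 3.78-fold higher than the PL (log2FC = 1.92, SE 0.20, adjusted p = 5.04e-09) and 5.86-fold higher than the IL (log2FC = 2.55, SE 0.20, adjusted p = 2.44e-11). The other arm, rno-miR-380-5p, was 2.88-fold and 4.95-fold higher (log2FC = 1.53 and 2.31, SE 0.24 and 0.24), in 12 of 12 rats each time. Some rarer members differed by more, such as rno-miR-369-3p (log2FC = 2.95 and 2.83) and rno-miR-382-3p (log2FC = 2.22 and 2.79).

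rno-miR-495, which has been studied in the accumbens as a repressor of addiction-related genes such as Bdnf, followed closely. It lay between 6.12 and 8.14 log2 CPM in the PL (median 7.61), between 6.09 and 7.56 in the IL (median 6.88) and between 7.87 and 10.04 in the NAc (median 9.33). The NAc was higher in 12 of 12 rats against either cortical region (log2FC = 1.76 and 2.41, SE 0.19 and 0.19, adjusted p = 8.38e-09 and 2.44e-11). rno-miR-410-3p, from the last hairpin of the cluster, lay between 7.40 and 8.33 log2 CPM in the NAc, above its ranges in the PL (5.40 to 7.38) and the IL (5.49 to 6.81). It was 2.49-fold higher than in the PL (log2FC = 1.32, SE 0.14) and 3.51-fold higher than in the IL (log2FC = 1.81, SE 0.14).

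The members lower in the NAc included some of the better known of the cluster. rno-miR-485-5p, the third most abundant member, lay between 11.27 and 13.16 log2 CPM in the PL (median 12.19), between 11.92 and 13.47 in the IL (median 12.55) and between 10.63 and 11.92 in the NAc (median 11.23). The NAc was below both cortical regions in every rat (log2FC = −0.92 and −1.44, SE 0.17 and 0.17, adjusted p = 2.88e-05 and 1.75e-08). rno-miR-134-5p was also lower in every rat (log2FC = −0.49 and −0.84, SE 0.10 and 0.10, adjusted p = 0.000191 and 4.59e-08), at 8.81 to 9.60 log2 CPM in the NAc against 9.13 to 10.34 in the PL and 9.48 to 10.30 in the IL. rno-miR-134-3p, its low counterpart, was below both as well (log2FC = −0.64 and −0.70, SE 0.12 and 0.11). rno-miR-323-5p was lower against the IL in every rat (log2FC = −1.29, SE 0.15) and against the PL in 10 of 12, since 2 rats had the higher value in the NAc (log2FC = −0.74, SE 0.15). The others named for the size of their decrease were rno-miR-667-5p (log2FC = −0.60 against the PL and −1.03 against the IL) and rno-miR-668 (log2FC = −0.46 and −0.91).

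**Figure D3:**
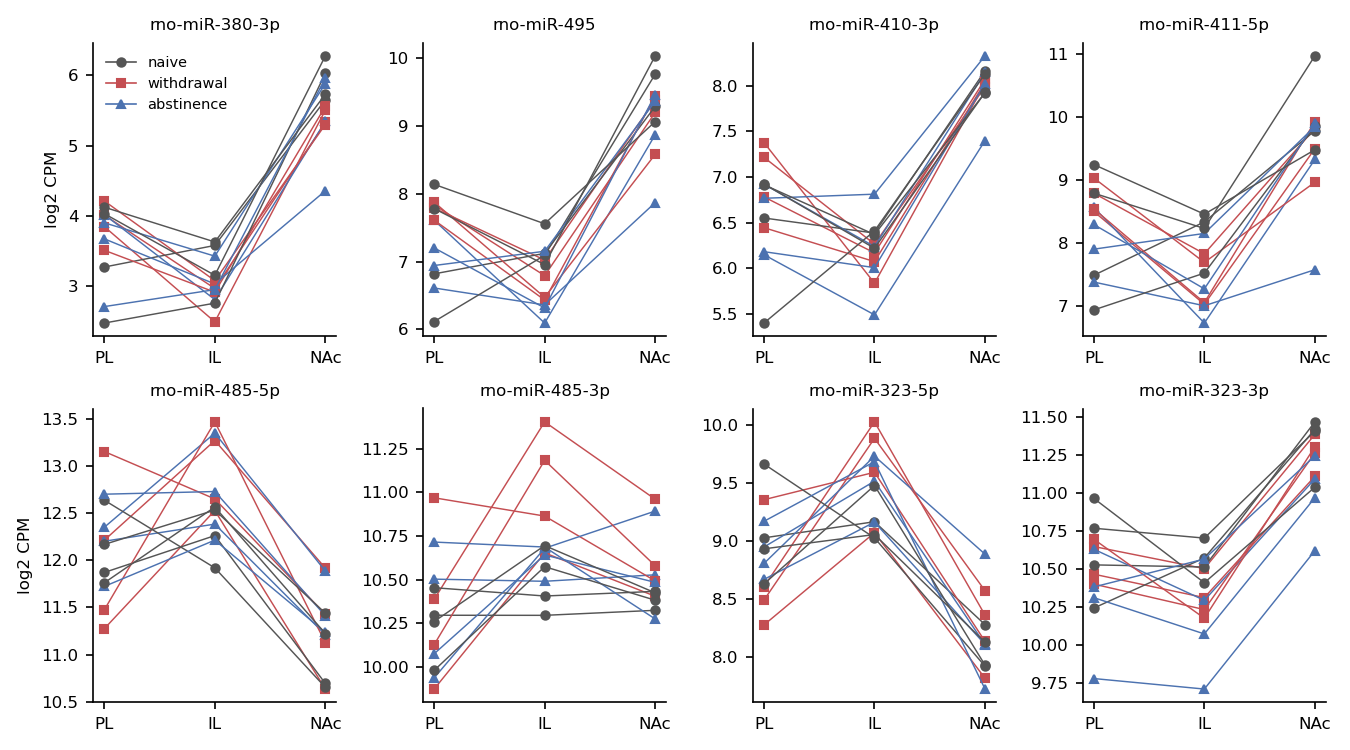
Levels of 8 members (y axes, log2 CPM, each with its own range not starting at 0) in the PL, IL and NAc; each line is 1 rat, coloured by cocaine group. The upper row rises towards the NAc; in the lower row rno-miR-485-5p and rno-miR-323-5p fall towards the NAc while rno-miR-323-3p from the same hairpin as the latter rises, and rno-miR-485-3p has no call there.

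Several of the most abundant members differed little between regions. rno-miR-543-3p was 1.19-fold higher in the NAc than in the PL (log2FC = 0.25, SE 0.10, adjusted p = 0.0349) and had log2FC = 0.16 (SE 0.10, adjusted p = 0.139) against the IL. rno-miR-409a-3p had log2FC = −0.03 against the PL (adjusted p = 0.874) and −0.40 against the IL (SE 0.13, adjusted p = 0.00975). rno-miR-541-5p was lower against both (log2FC = −0.41 and −0.46, SE 0.10 and 0.10), and rno-miR-382-5p had −0.11 (SE 0.08, adjusted p = 0.223) and −0.25 (SE 0.08, adjusted p = 0.00774).

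The 2 cortical regions differed less from each other. Against the PL, the IL had 9 of 56 members higher and 14 lower, 16.1% and 25%, against a background of 18.2% and 19.9%, and the median log2FC was −0.11 for the members and −0.02 for all miRNAs. Those higher in the IL were led by rno-miR-666-5p (log2FC = 0.78, SE 0.16, adjusted p = 0.00386), rno-miR-323-5p (0.55, SE 0.14), rno-miR-485-5p (0.52, SE 0.17), rno-miR-668 (0.45, SE 0.14) and rno-miR-667-5p (0.43, SE 0.13). Those lower were led by rno-miR-496-3p (log2FC = −0.86, SE 0.22, adjusted p = 0.00565), rno-miR-380-5p (−0.78, SE 0.24), rno-miR-376b-5p (−0.77, SE 0.21), rno-miR-411-5p (−0.74, SE 0.21) and rno-miR-411-3p (−0.71, SE 0.19). With an adjustment for the GC content of the mature sequences, rno-miR-485-5p (0.45), rno-miR-496-3p (−0.50) and rno-miR-411-5p (−0.56) kept their calls. The others named here lost theirs, with rno-miR-323-5p, rno-miR-667-5p and rno-miR-668 at 0.01, 0.01 and 0.02, rno-miR-666-5p at 0.29, rno-miR-380-5p at −0.52, rno-miR-376b-5p at −0.23 and rno-miR-411-3p at −0.28. The 9 calls of higher members became 5 without withdrawal replicate 1, whose IL library was the highest of all 36 in the choroid plexus and ependymal list (2843 summed CPM, median 1686).

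The direction of these differences went with the base composition of the mature miRNA. Over the 56 members, the log2FC and the GC content of the mature sequence had Spearman's rho of −0.69 in the NAc against the PL, −0.76 against the IL and 0.68 in the IL against the PL. Over the 355 miRNAs outside the cluster with a sequence, the same values were −0.46, −0.58 and 0.62. These are correlations across miRNAs measured in the same libraries, given as a description. The 30 members higher in the NAc than in both cortical regions had a median GC content of 42.9% (23.8% to 55%), and the 10 lower than both had 56.8% (44% to 72.7%). The libraries themselves differed in this respect: the slope of a library's deviation per 10 points of GC was 0.03 to 0.56 (log2) in the IL, −0.24 to 0.60 in the PL and −0.70 to 0.21 in the NAc.

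**Figure D4:**
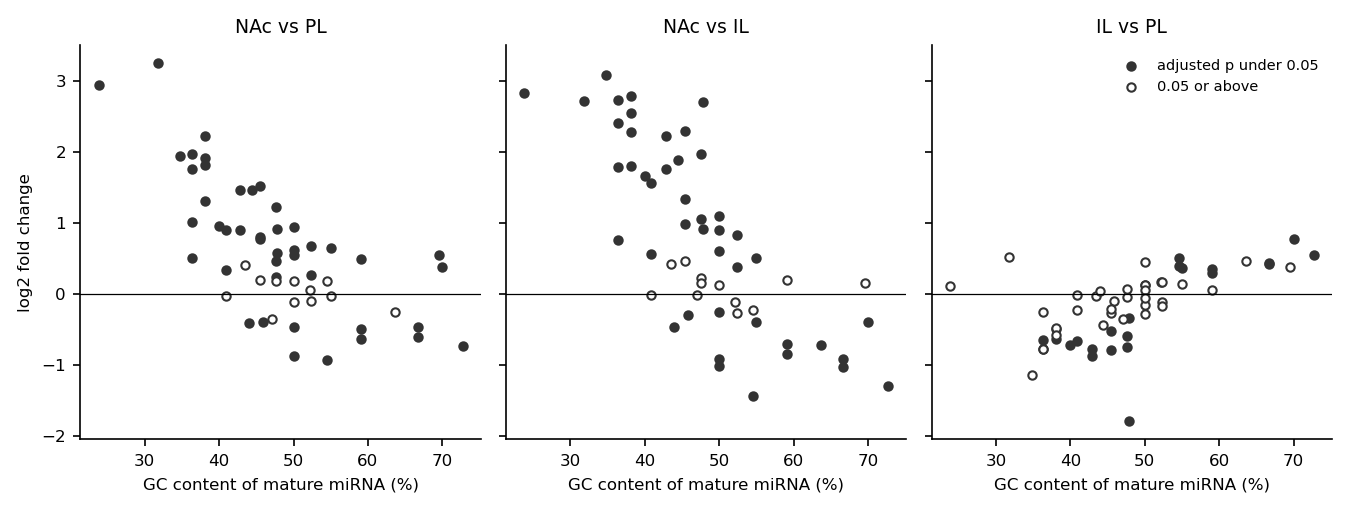
Log2 fold change (y axis) of the 56 tested members against the GC content of the mature miRNA (x axis, percent) for the 3 comparisons between regions; filled points have an adjusted p under 0.05. In the NAc comparisons the points fall from upper left to lower right (Spearman's rho −0.69 and −0.76), and between the cortical regions they run the other way (0.68).

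An adjustment for GC content, added after the data were seen, removed from each library a curve fitted to 233 miRNAs outside the cluster. The members higher in the NAc were then 33 against the PL and 29 against the IL, with 31 and 26 of them among the calls above, and the median log2FC was 0.51 and 0.65. The background with the same adjustment was 36.1% and 40.5%. The members lower in the NAc fell to 6 and 9, where 26.5% and 31.7% of all miRNAs were lower. The calls between the IL and the PL fell to 3 higher and 3 lower, where 10.9% and 10.3% of all miRNAs were. rno-miR-380-3p (log2FC = 1.34 and 1.47), rno-miR-495 (1.07 and 1.17), rno-miR-410-3p (0.76 and 0.76), rno-miR-411-5p (1.27 and 1.83) and rno-miR-485-5p (−0.59 and −1.03) kept an adjusted p under 0.05 against both the PL and the IL. rno-miR-323-5p kept its calls at −0.26 (adjusted p = 0.0221) and −0.27 (adjusted p = 0.0157), a smaller difference than before. rno-miR-134-3p lost both calls (−0.23, adjusted p = 0.0775, and −0.07, adjusted p = 0.602). rno-miR-369-3p had 1.66 against the PL and lost its call against the IL (0.74, adjusted p = 0.109), and rno-miR-382-3p kept both (1.63 and 1.71). rno-miR-668 had −0.01 and −0.03 after it, rno-miR-667-5p −0.14 and −0.15, and rno-miR-134-5p −0.07 (adjusted p = 0.353) and −0.20 (adjusted p = 0.00636). rno-miR-666-5p, whose GC content is 70%, went from −0.38 to 0.57 against the IL.

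The arms of a hairpin start from 1 precursor in equal number, so the cell sets their ratio after transcription. A ratio of counts also depends on how well each arm is captured in a library, and the part of each was not tested. Of the 25 hairpins with both arms tested, 12 had more 5p and 9 more 3p in all 36 libraries, and 4 changed order between libraries. The log2 ratio of 5p to 3p counts was compared between regions with limma over 141 hairpins, with the rat as a block. It differed between the NAc and the PL for 17 of 25 member hairpins (adjusted p under 0.05; 61.0% of all hairpins), with a move towards 3p in the NAc for 15 and towards 5p for 2. Against the IL 18 differed (73.8% of all hairpins), 15 towards 3p and 3 towards 5p. Over all hairpins the moves were divided, with 46 of 86 called hairpins towards 3p against the PL and 50 of 104 against the IL. Between the IL and the PL, 4 differed (19.9% of all hairpins).

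The miR-485 hairpin had the lowest p against the PL. Its 5p arm held 78.3% of the hairpin's counts in the PL, 79.7% in the IL and 62.8% in the NAc. The log2 ratio was lower in the NAc in 12 of 12 rats against each region (differences −1.11 and −1.22, SE 0.12 and 0.12, adjusted p = 7.06e-08 and 2.26e-09 from limma). Both arms of miR-485 have the same GC content, 54.5%. The miR-323 hairpin, which favours 3p, went from 24.2% 5p in the PL and 35.0% in the IL to 11.1% in the NAc (differences −1.43 and −2.14, SE 0.18 and 0.18), and its 5p and 3p arms have GC contents of 72.7% and 52.4%. The miR-410 hairpin fell from 2.63% and 3.92% to 1.35% 5p (differences −1.15 and −1.57, SE 0.17 and 0.17).

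Where the minor arm is rare, the ratio rests on few counts. The 5p arm held 99.9% of miR-539 counts in the PL and 99.3% in the NAc (difference −3.01, SE 0.45), and 99.8% and 98.8% of miR-382 counts (difference −2.47, SE 0.39). The miR-377 hairpin, with 90.3% 5p in the PL and 96.7% in the IL, had 63.2% in the NAc (differences −2.67 and −4.05, SE 0.50 and 0.50). The miR-329 hairpin was among the 4 that changed order: 5p was above 3p in 12 of 12 PL and 12 of 12 IL libraries and in 2 of 12 NAc libraries. The miR-409a hairpin moved the other way, towards 5p in the NAc (4.09% 5p, against 2.82% in the PL and 1.69% in the IL). Between the cortical regions the hairpins that differed were miR-323, miR-409a, miR-541 and miR-496 (differences 0.71, −0.69, 1.43 and 0.89 in the IL minus the PL), and miR-377 missed the threshold (1.39, adjusted p = 0.0511). None of the 25 hairpins differed between the cortical regions without abstinence replicate 1 or without withdrawal replicate 1, 2 or 4. Over the member hairpins the difference went with the GC content of 5p minus that of 3p (Spearman's rho −0.60 and −0.62 in the NAc comparisons, 25 hairpins; −0.58 and −0.62 over 119 hairpins of the whole table).

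In 4 hairpins the arms were called in opposite directions between the NAc and the PL (miR-323, miR-329, miR-377 and miR-541), always with 5p lower and 3p higher, and in 6 between the NAc and the IL, where miR-382 and miR-409a joined them and miR-409a had 5p higher and 3p lower. For miR-323 the values were −0.74 (SE 0.15) for 5p and 0.67 (SE 0.07) for 3p against the PL. After the GC adjustment 2 of the 4 and 4 of the 6 were still called in opposite directions, miR-323 and miR-541 in both comparisons. Opposite calls were not counted over the hairpins outside the cluster, so they are not shown to be more common in it.

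Other miRNAs of the Dlk1-Dio3 region were read beside the cluster. Of 9 miRNAs antisense to Rtl1 (the lists of miR-127, miR-136, miR-431, miR-432, miR-433 and miR-434), 6 were higher and 1 lower in the NAc than in the PL, and 6 and 2 against the IL, with medians of 0.66 and 1.06. Of 15 tested outside both sets (miR-770, miR-673, miR-493, miR-337, miR-540, miR-665, miR-370, miR-341 and miR-1188), 1 was higher and 6 lower than in the PL, and 3 and 8 against the IL, with medians of −0.14 and −0.49. Between the IL and the PL, 2 were higher and 1 lower in the antisense set and 6 and 1 in the other. The difference between these lists and the cluster was not tested. Over the 36 libraries, the summed level of the members went most closely with rno-miR-493-3p (Pearson's r = 0.75), rno-miR-6331 (0.74), rno-miR-378a-3p (0.74), rno-miR-344b-1-3p (0.64) and rno-miR-212-5p (0.63). The libraries share region and depth, and no test was made. The hairpin of rno-miR-6331 lies within the span of the cluster on the plus strand in GRCr8, but it was not among the names of the rule.

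Rats of 1 group differed from each other in the members only loosely together. After removal of each group's mean, pairs of the 38 members with a mean of at least 3 log2 CPM had a median Pearson's r of 0.08 over the 36 libraries (quartiles −0.26 and 0.42, 703 pairs), and pairs of miRNAs outside the cluster 0.01 (−0.35 and 0.38). The 11 pairs of arms of 1 hairpin had a median of 0.39.

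The marker lists give levels of miRNAs tied to cell types, neurons among them, and do not count cells. Their part in the results was not tested. Oligodendrocyte miRNAs (miR-338 and miR-219, 4 tested) summed to 3652 to 5283 CPM in the NAc, 1134 to 5239 in the PL and 1682 to 5257 in the IL, and 3 of 4 were higher in the NAc than in either, with 1 lower than in the IL. Endothelial and vessel wall miRNAs (6 tested) ran from 2495 to 13463 CPM in the NAc, 1529 to 8561 in the PL and 1565 to 5664 in the IL, with 2 of 6 higher and 2 lower against the PL and 4 and 2 against the IL. Neuronal miRNAs (19 tested) ran from 187695 to 393966 CPM in the NAc, 226541 to 662325 in the PL and 191462 to 417767 in the IL, with 7 higher and 8 lower against the PL and 6 and 8 against the IL. Microglial and immune miRNAs (4 tested) ran from 527 to 840 CPM in the NAc and 700 to 1431 in the PL, with 1 higher and 2 lower. In the IL they ran from 693 to 1217 CPM, with 2 higher and 2 lower in the NAc. Choroid plexus and ependymal miRNAs (8 tested) ran from 1548 to 2610 CPM in the NAc and 1140 to 1912 in the PL, with 1 higher and 1 lower. In the IL they ran from 1168 to 2843 CPM, with 1 higher and 1 lower in the NAc. The 1 red blood cell miRNA tested stayed under 3.23 CPM in every library and was higher in the NAc than in either. Epithelial miRNAs (8 tested) had a median of 36.7 CPM over the libraries and reached 2744 and 1368 in the PL and NAc of withdrawal replicate 3. Without that rat 34 members were higher in the NAc than in the PL.

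The cocaine groups were compared within each region by edgeR's quasi-likelihood test on all 36 libraries with RIN as a covariate, with the study's thresholds of a fold change of at least 1.5 and an unadjusted p under 0.05. After Benjamini-Hochberg adjustment no member passed 0.05 in these 9 comparisons with edgeR, limma-voom or DESeq2. Before adjustment 34, 35 and 33 of 504 member tests did. The edgeR numbers follow for withdrawal against naïve, abstinence against naïve and abstinence against withdrawal rats, in that order. In the IL 8, 6 and 8 of 56 members passed, and 38, 53 and 37 of all 457 miRNAs. In the PL 4, 4 and 0 members passed, and 32, 22 and 18 of all miRNAs. In the NAc 1, 3 and 0 members passed, and 20, 13 and 6 of all miRNAs. What follows describes members past unadjusted thresholds.

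At withdrawal in the IL, 7 members were past the thresholds against naïve rats, 4 of them higher and 3 lower, 12.5% of the members against 6.35% of all miRNAs. rno-miR-409a-3p, the second most abundant member, stood at 12.24, 12.52, 12.56 and 12.76 log2 CPM in naïve rats and at 12.78, 12.80, 13.53 and 13.58 at withdrawal. The groups did not overlap (log2FC = 0.66, SE 0.29, p = 0.0285, adjusted p = 0.489; exact permutation p = 0.0286, the smallest that 4 against 4 rats allow). rno-miR-485-3p stood at 10.29, 10.41, 10.57 and 10.69 in naïve rats and at 10.65, 10.86, 11.18 and 11.40 at withdrawal, with 1 naïve rat above the lowest withdrawal rat (log2FC = 0.60, SE 0.20, p = 0.00494, adjusted p = 0.489). rno-miR-666-5p stood at 5.20, 5.30, 5.32 and 5.34 in naïve rats and at 5.57, 5.66, 5.96 and 7.10 at withdrawal (log2FC = 0.80, SE 0.30, p = 0.013). The groups did not overlap, and 1 rat was far above the other withdrawal rats.

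The members lower at withdrawal in the IL were the minor products of their hairpins or rare. rno-miR-379-3p stood at 5.25, 5.36, 5.48 and 5.64 log2 CPM in naïve rats and at 4.09, 4.43, 4.43 and 5.06 at withdrawal (log2FC = −0.73, SE 0.32, edgeR p = 0.0284, exact permutation p = 0.0286). rno-miR-382-3p stood at 1.78, 1.92, 2.12 and 2.43 against −0.43, −0.02, 0.61 and 1.20 (log2FC = −1.29, SE 0.58, edgeR p = 0.0334, exact permutation p = 0.0286), from 27, 36, 33 and 59 counts against 6, 8, 15 and 19. For both the groups did not overlap. rno-miR-496-5p was lower with 1 rat in overlap (log2FC = −0.88, SE 0.36), and rno-miR-666-3p higher with overlap (log2FC = 0.79, SE 0.35, exact permutation p = 0.171).

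These 7 calls depended most on 1 rat: without withdrawal replicate 1, none of the 56 members was past the thresholds and 8 of all 457 miRNAs (1.75%) were. Its rno-miR-666-5p, 7.10 log2 CPM, was the highest of all 36 libraries, and without it the log2FC of rno-miR-666-5p was 0.21. Without naïve replicate 1 or withdrawal replicate 2, 4 members were past the thresholds, and without withdrawal replicate 3, 5 were. Without naïve replicate 2, 3 or 4 or withdrawal replicate 4 there were 7, 7, 6 and 9. Of all miRNAs, 3.5% to 12.7% were in these fits. The calls of rno-miR-409a-3p and rno-miR-666-3p were each lost without any 1 of 4 of the 8 rats. With the GC adjustment 3 of the 56 members were past the thresholds, where 4.6% of all miRNAs were. These 3 were among the 7 (rno-miR-382-3p, rno-miR-409a-3p and rno-miR-496-5p). The slope on GC was 0.23 to 0.56 in the withdrawal IL libraries against 0.03 to 0.25 in the naïve ones. The call of rno-miR-485-3p was lost in 5 of 9 settings, with limma-voom, no RIN and the GC adjustment among them. It was also lost without any 1 of 3 rats, withdrawal replicates 1 and 2 and naïve replicate 1. The share of counts held by the cluster was 3.86%, 4.09%, 4.63% and 5.19% at withdrawal in the IL and 3.52%, 3.52%, 3.75% and 3.92% in naïve rats, which overlap.

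After 4 weeks of abstinence in the IL, 3 members were past the thresholds, 2 of them higher and 1 lower, 5.36% against 8.32% of all miRNAs. rno-miR-379-5p, from the first hairpin of the cluster, stood at 10.62, 11.14, 11.26 and 11.44 log2 CPM in naïve rats and at 9.38, 9.67, 10.16 and 10.75 in abstinence, with 1 rat of each group in overlap (log2FC = −0.96, SE 0.35, p = 0.0101, adjusted p = 0.288; exact permutation p = 0.0571). rno-miR-369-3p was 4.32-fold higher, with 11, 14, 22 and 34 counts in abstinence against 3, 4, 8 and 10 in naïve rats (log2FC = 2.11, SE 0.80, p = 0.0126, exact permutation p = 0.0286). Both stayed past the thresholds under the GC adjustment. rno-miR-666-3p, also a rare member, was higher with overlap (log2FC = 0.99, SE 0.35, edgeR p = 0.00859, exact permutation p = 0.0857) and lost its call there (0.57). The count of 3 was 9 without naïve replicate 2, when 13.3% of all miRNAs were past the thresholds. It was 7 and 5 without abstinence replicates 3 and 1 (16.0% and 6.13% of all miRNAs) and 2 without abstinence replicate 4 (5.47%).

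Between abstinence and withdrawal in the IL, 3 members were higher and 2 lower in abstinence, 8.93% against 6.35% of all miRNAs. rno-miR-541-5p, the fourth most abundant member, stood at 11.84, 12.01, 12.10 and 12.24 log2 CPM at withdrawal and at 11.21, 11.45, 11.49 and 11.59 in abstinence. The groups did not overlap (log2FC = −0.62, SE 0.19, p = 0.00247, adjusted p = 0.305; exact permutation p = 0.0286). rno-miR-382-3p was higher in abstinence, at 1.67, 1.72, 2.0 and 2.02 against the withdrawal values above (log2FC = 1.48, SE 0.57, p = 0.0143, exact permutation p = 0.0286). The others were rno-miR-369-3p (log2FC = 1.78, SE 0.76), rno-miR-299a-5p (0.84, SE 0.38) and rno-miR-409a-3p (−0.59, SE 0.28), each with overlap. With the GC adjustment rno-miR-369-3p (1.36) and rno-miR-409a-3p (−0.58) lost their calls. In all, the call of rno-miR-409a-3p was lost in 6 of 9 settings and without any 1 of 5 of the 8 rats. That of rno-miR-299a-5p was lost in 3 settings and without any 1 of 4 rats, and limma-voom was among the settings for both. The 5 calls became 1 without abstinence replicate 4 (4.81% of all miRNAs) and 2 and 3 without withdrawal replicates 1 and 2 (3.72% and 6.13%). Without withdrawal replicate 3 or 4 they became 8 (9.41% and 7.44% of all miRNAs). These comparisons share the rats of each group with those above.

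**Figure D5:**
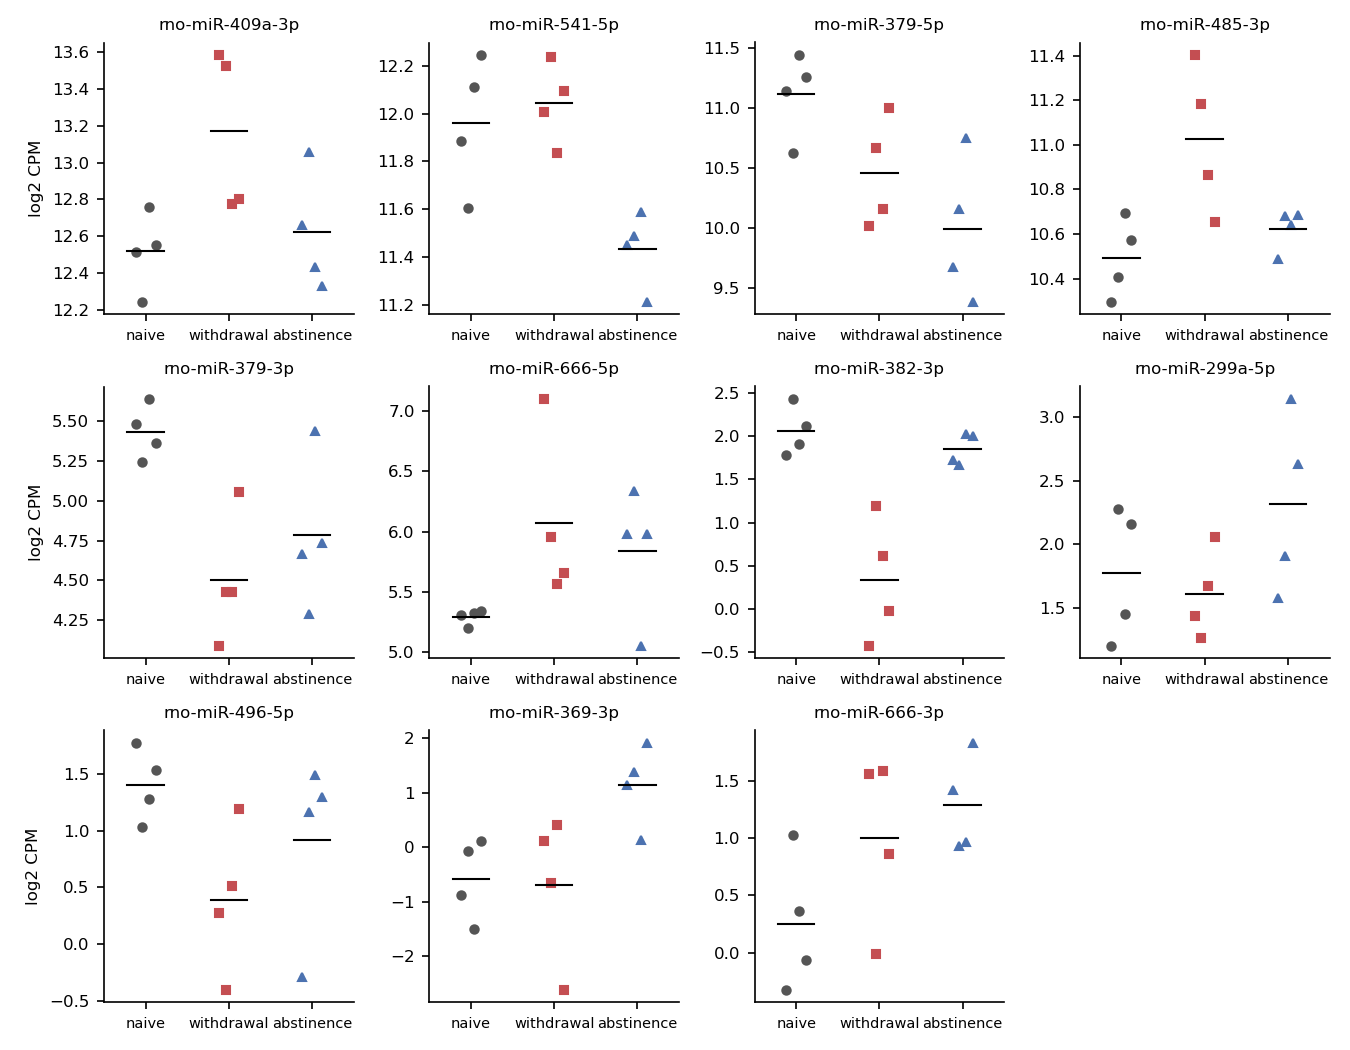
Levels in the IL (y axes, log2 CPM, each with its own range not starting at 0) of the 11 members past the thresholds in any comparison there, by cocaine group; each point is 1 rat and the line is the mean of 4. The withdrawal rats lie above the naïve rats for rno-miR-409a-3p and below them for rno-miR-382-3p, and the abstinence rats lie below the withdrawal rats for rno-miR-541-5p.

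In the PL, 1 member was higher and 1 lower at withdrawal (3.57% of the members, 4.81% of all miRNAs). rno-miR-381-3p stood at −0.21, 0.06, 0.81 and 1.48 log2 CPM in naïve rats and at 1.69, 1.85, 1.91 and 1.95 at withdrawal, without overlap (log2FC = 1.17, SE 0.39, p = 0.00512, adjusted p = 0.624; exact permutation p = 0.0286). These were 7, 8, 14 and 21 counts against 60, 45, 47 and 30, in libraries of which all 4 at withdrawal (11372613 to 18877136 total counts) were deeper than the naïve ones (7517269 to 9911807), and the near-identical rno-miR-300-3p had 3310 to 10824 counts in the same 8 libraries. rno-miR-667-3p stood at 6.47, 6.67, 7.40 and 8.15 in naïve rats, at 5.91, 6.49, 6.54 and 6.60 at withdrawal and at 6.14, 6.63, 6.76 and 6.96 in abstinence. It was lower in both (log2FC = −0.84 and −0.79, SE 0.33 and 0.33), overlapped in both, and was the only member past the thresholds in abstinence against naïve rats (1.79%, against 2.41% of all miRNAs). Both calls ended without naïve replicate 2, the highest of the naïve rats, and the second also without naïve replicate 1. Both also ended with the GC adjustment (log2FC = −0.48 and −0.56). The abstinence call also ended with limma-voom, without RIN, with the rat as a random replicate block and in the PL's 12 libraries. Between abstinence and withdrawal no member was past the thresholds in the PL (0 at p under 0.05 with edgeR and DESeq2, 1 with limma-voom), where 3.50% of all miRNAs were.

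In the NAc, rno-miR-382-3p was lower at withdrawal, at 3.52, 3.53, 4.31 and 5.11 log2 CPM against 3.35, 5.13, 5.40 and 6.03 in naïve rats, with overlap (log2FC = −1.04, SE 0.49, p = 0.0409; exact permutation p = 0.286). It was the only member past the thresholds there (1.79%, against 2.84% of all miRNAs), and the call ended without any 1 of 4 rats, withdrawal replicates 1 and 2 and naïve replicates 2 and 4. No member was past the thresholds in abstinence against naïve rats (1.09% of all miRNAs; 3 at p under 0.05 with edgeR, limma-voom and DESeq2) or against withdrawal (0.875% of all miRNAs; 0 at p under 0.05 with each tool). Without abstinence replicate 4, 9 members were past the thresholds in abstinence against naïve rats, 8 of them lower, where 6.35% of all miRNAs were.

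Whether a change differed between regions was tested on the difference itself. Of 504 tests of members, none had an adjusted p under 0.05 with edgeR, limma-voom or DESeq2 (lowest 0.416 with edgeR), while 22, 22 and 23 passed 0.05 before adjustment. These fits had no term for the rat. With the rat as a fixed block in edgeR, 0 of 504 passed after adjustment and 27 before it. Over all miRNAs, none of 4113 tests passed after adjustment with edgeR without the block. Those passing before it were not counted, so the member counts have no background here. So a member past the thresholds in the IL and not in the other regions is not shown to differ between them.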

How the data were processed

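Small RNA libraries (NEBNext) from 36 tissue samples were made into counts by the authors with the CAP-miRseq workflow. The deposited table gives whole-number read counts for each mature miRNA, with no normalization. The study's methods name another rat build than the submitters' processing notes (mRatBN7.2, rn7). Which libraries shared a sequencing pool is not given in the sources used here.

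Counts were filtered with filterByExpr (minimum count 10, minimum total 15, 9 combinations of group and region), which kept 457 of 723 miRNAs, and scaled by TMM. Log2 CPM used a prior count of 0.5. Tests used edgeR 4.0.16, limma 3.58.1 and DESeq2 1.42.0 in R 4.3.3, and tables and figures Python with matplotlib 3.10.9. The tests were checked on simulated data. Arm ratios used a pseudocount of 0.5. RIN ran from 7.4 to 9.3.

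Regions come from the same rats, as the study's sample list states (1 NAc library was tied to its rat by elimination). Deviations from the group mean correlated within rats with a median r of 0.27 (IL and PL), 0.15 (IL and NAc) and 0.27 (PL and NAc). Libraries of 1 group were not duplicates. The rats are separate animals.

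Members, lists and tests were chosen with earlier results of these data known. Named were the 8 most abundant members, the 5 largest changes in each direction per region comparison (mean of at least 3 log2 CPM), up to 6 members past the thresholds per cocaine comparison, the 5 hairpins of lowest p per arm comparison, and the 5 outside miRNAs most like the members. Other names were chosen after their values were seen. Marker lists covered neurons, oligodendrocytes, microglia and immune cells, endothelium and vessel wall, red blood cells, choroid plexus and ependyma, and epithelium. Alternatives tried were other scalings, no filter, limma-voom, DESeq2, no RIN, blocks for the rat, single regions, leaving out each rat, another pseudocount and the GC adjustment (loess span 0.75, on 411 miRNAs with a sequence, 89.9%).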

Additional observations from a re-analysis of the deposited data

Results flagged for a closer look

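In 104 groups of 4 rats looked at, 4 had 1 library far from the other 3 (a gap to its nearest neighbour that took most of the group's range). Chance alone sets 1 library apart in about 1 in 20 groups. rno-miR-543-3p was lowest in the NAc of naïve replicate 1, at 13.27 log2 CPM against 13.59 to 13.66 in the other naïve rats. rno-miR-323-3p was lowest in the NAc of naïve replicate 3, at 11.04 against 11.41 to 11.47. rno-miR-382-5p was lowest in the PL of abstinence replicate 2, at 10.76 against 11.04 to 11.06. rno-miR-667-3p was lowest in the PL of withdrawal replicate 3, at 5.91 against 6.49 to 6.60, the library that also held the highest summed level of epithelial miRNAs.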

How the results depend on the processing

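The counts of members higher in the NAc than in the PL (34) or the IL (30) stayed within 1.5 times of these values under every alternative run. With the GC adjustment, members lower in the NAc were 6 against the PL and 9 against the IL, and between the IL and the PL 3 were higher and 3 lower; without the replicate block these were 6, 9, 2 and 3. rno-miR-667-5p then had −0.00101 in the IL against the PL. Without the replicate block alone, the calls were 33 and 10 (NAc against PL), 30 and 14 (NAc against IL) and 7 and 14 (IL against PL). The cause of these shifts was not tested.

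Leaving out each rat in turn gave 30 to 34 members higher and 9 to 10 lower in the NAc than in the PL, 30 to 32 and 13 to 15 against the IL, and 5 to 11 and 13 to 16 in the IL against the PL. Arm ratios differed for 15 to 19, 18 to 20 and 0 to 7 hairpins, with 0 in the IL against the PL without abstinence replicate 1 or withdrawal replicate 1, 2 or 4. Members past the thresholds at withdrawal were 0 to 9 in the IL, 1 to 4 in the PL and 0 to 2 in the NAc. In abstinence against naïve rats they were 2 to 9, 0 to 3 and 0 to 9, and against withdrawal 1 to 8, 0 to 1 and 0 to 1. The share of all miRNAs past the thresholds moved as well, from 1.75% to 12.7% at withdrawal in the IL. The tests of differences between regions gave 0 throughout.

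Of the 7 members past the thresholds at withdrawal in the IL, 3 were so in a fit of that region's 12 libraries and 3 with the GC adjustment. The 1 in the NAc was lost without RIN (0). In abstinence against naïve rats, the IL had 6 without RIN and 5 in its 12 libraries. The PL had 2 with no filter, limma-voom or the rat as a random replicate block, 4 without RIN, 0 in its 12 libraries and 3 with the GC adjustment (3.50% of all miRNAs). Of these settings, only the one with no filter kept rno-miR-667-3p. The NAc had 1 with no filter, limma-voom, the random replicate block or its 12 libraries and 2 without RIN. Between abstinence and withdrawal the PL had 1 with limma-voom or the random replicate block. Except for the GC adjustment, the share of all miRNAs past the thresholds in these settings is not given. A move of the members and a move of the whole table cannot be told apart there. With 4 rats a group, rare members such as rno-miR-369-3p rest on few counts.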
